A study of Homo sapiens with 8 samples.

Results

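IMMP2L, TMEM135 and TMEM164 are 3 protein-coding genes for membrane proteins of mitochondria, peroxisomes and lipid metabolism. They were chosen by their measured values, because each stood lower in both libraries with overexpressed PURPL than in the matching controls, and for IMMP2L the lower level after PURPL knockdown was part of the choice as well. They are 3 of 59370 gene names in the deposited tables and of 14977 genes that were abundant enough to test. Their overexpression values, and the knockdown values of IMMP2L, are therefore given as a description with no test, and only the knockdown values of TMEM135 and TMEM164 were tested.

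The RNA came from BJ cells, an established line of human skin fibroblasts, and PURPL is a long noncoding RNA that p53 is known to induce. There are 8 libraries in 4 groups of 2. OE-PURPL cells overexpress PURPL and are set against PCDNA, an empty plasmid. ASO-PURPL cells have PURPL knocked down with an antisense oligo and are set against ASO-NC, a control oligo. Time after treatment, and whether replicates came from separate cultures, are not given in the sources used here. Values are in FPKM, fragments scaled to transcript length and library size. Replicate 1 of each comparison stands in its own table and replicate 2 of all groups in a further one, so a treated library was compared only with the control of its own table and number, as a log2 ratio of FPKM plus 1. These tables may have been normalized separately, which touches every mean ± SD and every range over libraries given here. Read depth is unknown, library sums ran from 464110 to 587727 FPKM, and between 13442 and 14598 genes per library reached 1 FPKM. All 10 fibroblast markers examined, among them COL1A1, VIM and THY1, stood between 21.2 and 2730 FPKM in every library, with a summed level of 5010 to 6390 FPKM. Of 5 keratinocyte markers, KRT5, KRT1 and TP63 were under 1 FPKM in every library, KRT14 reached 2.2 and KRT10 stood at 7.44 to 35.3 FPKM. The summed levels of 3 endothelial, 3 immune and 3 melanocyte markers were 0.0972 to 1.62, 0.509 to 2.80 and 0.981 to 3.62 FPKM, in which PECAM1 reached 1.48, CD14 2.63 and PMEL 3.51 FPKM. PURPL itself followed the labels in direction. OE-PURPL libraries held 153 and 238 FPKM where PCDNA held 5.42 and 5.73. ASO-PURPL libraries held 6.31 and 4.24 FPKM where ASO-NC held 16.2 and 9.74. The knockdown change of PURPL, -1.13 on the log2 scale, did not itself pass (adjusted p = 0.374, limma). In such bulk RNA, fewer cells that make a transcript and less of it per cell cannot be told apart.

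The mitochondrial inner membrane carries a peptidase whose catalytic subunits are IMMP1L and IMMP2L. It trims sorting signals from proteins bound for the intermembrane space, and loss of IMMP2L has been linked to senescence of cells. TMEM135 is a multipass membrane protein found on peroxisomes and mitochondria, and in mice its mutation alters the size of mitochondria and brings on early signs of retinal aging. TMEM164 is an acyltransferase that places polyunsaturated acyl chains into ether phospholipids, one of the classes of polyunsaturated lipid whose oxidation contributes to ferroptosis, a form of cell death that depends on iron.

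All 3 are long genes with GC-rich promoters. By GENCODE release 29, on the same assembly as hg38, IMMP2L lies on the minus strand of chromosome 7 from 110663051 to 111562517, TMEM135 on the plus strand of chromosome 11 from 87037844 to 87323758, and TMEM164 on the plus strand of chromosome X from 110002631 to 110182734. These spans of 899, 286 and 180 kb, nearly all intron, are at least as long as those of 99.7%, 96.2% and 91.5% of the tested coding genes in that order. The members' shared direction after overexpression follows from how they were chosen, and whether their starts share any control was not tested. The RefSeq windows from 250 bases before to 50 after each annotated start are printed here as a description. They are 5′ to 3′ on the gene's strand, from GRCh38.p14, with each match to the GC box GGGCGG or its reverse complement in capitals. RefSeq gives TMEM164 a pair of starts, and both windows are shown.

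IMMP2L at chr7:111562443-111562742: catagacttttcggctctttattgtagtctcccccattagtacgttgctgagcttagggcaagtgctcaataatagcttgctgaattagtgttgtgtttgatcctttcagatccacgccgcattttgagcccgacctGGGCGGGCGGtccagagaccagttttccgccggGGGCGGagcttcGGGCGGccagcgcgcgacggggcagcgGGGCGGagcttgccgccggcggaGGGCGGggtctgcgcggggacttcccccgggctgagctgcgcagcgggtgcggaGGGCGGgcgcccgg

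TMEM135 at chr11:87037684-87037983: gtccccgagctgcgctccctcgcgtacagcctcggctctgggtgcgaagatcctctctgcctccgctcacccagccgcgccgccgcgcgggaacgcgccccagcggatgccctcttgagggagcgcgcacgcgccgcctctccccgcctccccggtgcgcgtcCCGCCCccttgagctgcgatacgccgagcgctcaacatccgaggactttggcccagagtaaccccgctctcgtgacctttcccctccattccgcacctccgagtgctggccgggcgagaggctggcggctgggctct

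TMEM164, first start, at chrX:110002413-110002712: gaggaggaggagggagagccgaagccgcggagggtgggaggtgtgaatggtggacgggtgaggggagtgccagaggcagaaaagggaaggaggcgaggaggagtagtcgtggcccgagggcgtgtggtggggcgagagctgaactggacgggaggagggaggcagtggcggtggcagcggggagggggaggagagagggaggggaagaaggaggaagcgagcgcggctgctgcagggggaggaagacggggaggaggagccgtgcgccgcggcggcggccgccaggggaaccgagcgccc

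TMEM164, second start, at chrX:110002864-110003163: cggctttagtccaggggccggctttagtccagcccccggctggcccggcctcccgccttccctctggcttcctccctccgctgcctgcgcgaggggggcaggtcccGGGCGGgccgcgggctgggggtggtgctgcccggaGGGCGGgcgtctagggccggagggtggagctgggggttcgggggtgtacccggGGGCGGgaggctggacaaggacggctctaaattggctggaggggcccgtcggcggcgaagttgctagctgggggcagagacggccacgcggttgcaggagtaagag

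Their GC content is 65.0%, 72.0%, 71.3% and 73.7% in that order, against a median of 58.7% over all 35116 RefSeq windows of the same length. CG pairs number 31, 38, 25 and 27, against a median of 14. These medians are not limited to tested genes, so they do not show how the members stand among expressed genes. With overlapping matches counted, the GC box occurs 7 times in the IMMP2L window, 1 time in that of TMEM135, and 0 and 3 times in those of TMEM164, while 45.0% of all windows hold it at least 1 time. CCAAT was found 1 time, in the second TMEM164 window, and lies in 34.6% of all windows. The TATA box TATAAA, which 11.5% of all windows hold on either strand, occurs in none of the 4. The same is true of the E-box CACGTG, held by 7.26% of windows, and of the ETS-type motif CCGGAA, held by 17.2%. These letter matches are a description and say nothing of which factors bind.

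IMMP2L stood at one level in the controls of both arms and at a lower one in both kinds of treated cells. Its level was 11.5 and 13.4 FPKM in PCDNA (12.4 ± 1.33, SD, n = 2) and 2.87 and 2.48 FPKM in OE-PURPL (2.67 ± 0.276, SD, n = 2), replicate 1 first here and below. It was 17.5 and 13.7 FPKM in ASO-NC (15.6 ± 2.73, SD, n = 2) and 3.91 and 1.74 FPKM in ASO-PURPL (2.83 ± 1.53, SD, n = 2). The 4 control libraries thus lay between 11.5 and 17.5 FPKM and the 4 treated ones between 1.74 and 3.91 FPKM, with no overlap. This held whether PURPL had been raised or lowered. These are values on which IMMP2L was chosen, and the share of all tested genes that separate in this way was not counted.

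Within the tables, OE-PURPL held 25.0% and 18.5% of the IMMP2L level of PCDNA, log2 ratios of -1.69 and -2.05. ASO-PURPL held 22.3% and 12.8% of that of ASO-NC, log2 ratios of -1.92 and -2.42. The authors' deposited table gives -1.691 and -1.915 for the pairs of replicate 1. A log2 ratio of -1 or less in both pairs was seen in 14 of the 14977 tested genes after overexpression (0.0935%) and in 34 after knockdown (0.227%), and in all 4 pairs in 2 genes (0.0134%), IMMP2L and the thymosin pseudogene TMSB4XP2. TMSB4XP2, named after its values were seen, ran from 0 to 54.1 FPKM, and its PCDNA replicates stood at 14.3 and 54.1 FPKM. IMMP2L was chosen on these ratios, so nothing is read from its place in those counts.

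TMEM135 was low in OE-PURPL and close to its control after knockdown. It stood at 19.6 and 43.4 FPKM in PCDNA (31.5 ± 16.8, SD, n = 2) and at 5.11 and 6.44 FPKM in OE-PURPL (5.77 ± 0.938, SD, n = 2). In the other arm it stood at 25.9 and 34.7 FPKM in ASO-NC (30.3 ± 6.16, SD, n = 2) and at 25.5 and 31.4 FPKM in ASO-PURPL (28.5 ± 4.15, SD, n = 2). Its PCDNA, ASO-NC and ASO-PURPL libraries overlap in level, and both OE-PURPL libraries lie below all 6 of them. TMEM135 was chosen for low OE-PURPL values, and the share of all tested genes with such a separation was not counted. The PCDNA replicates, which come from different tables, differed 2.22-fold, more than those of any other group for this gene.

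OE-PURPL held 26.1% and 14.8% of the TMEM135 level of PCDNA, log2 ratios of -1.75 and -2.58. ASO-PURPL held 98.4% and 90.6% of that of ASO-NC, log2 ratios of -0.02 and -0.14. In limma across all 14977 genes the knockdown change of TMEM135 was -0.08 on the log2 scale (SE 0.20, 95% interval -0.59 to 0.43, adjusted p = 0.934). This was a difference not detected, with an interval from 0.66-fold to 1.35-fold. The SE and interval draw on the spread of the overexpression pairs as well, on which TMEM135 was chosen. With the knockdown pairs fitted alone the SE was 0.11 (adjusted p = 0.906, limma). No gene passed after knockdown at an adjusted p under 0.05 in either direction (0.0% higher and 0.0% lower), while 1225 had an unadjusted p under 0.05.

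TMEM164 was high in PCDNA and low in the other 3 groups. It stood at 8.78 and 10.6 FPKM in PCDNA (9.7 ± 1.3, SD, n = 2) and at 2.41 and 1.74 FPKM in OE-PURPL (2.07 ± 0.472, SD, n = 2). It stood at 1.97 and 3.46 FPKM in ASO-NC (2.72 ± 1.05, SD, n = 2) and at 3.92 and 2.38 FPKM in ASO-PURPL (3.15 ± 1.08, SD, n = 2). Levels in OE-PURPL, ASO-NC and ASO-PURPL overlap, and both PCDNA libraries lie above all 6 of them. The PCDNA values served to choose TMEM164, and the share of all tested genes with such a separation was not counted.

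OE-PURPL held 27.4% and 16.4% of the TMEM164 level of PCDNA, log2 ratios of -1.52 and -2.08. After knockdown the pairs disagreed, ASO-PURPL holding 198% of the ASO-NC level in replicate 1 and 69.0% in replicate 2, log2 ratios of 0.73 and -0.40. The knockdown change was 0.16 on the log2 scale (SE 0.31, 95% interval -0.61 to 0.93, adjusted p = 0.908, limma). This was a difference not detected, with an interval from 0.66-fold to 1.91-fold. Its SE too draws on the overexpression pairs, and with the knockdown pairs fitted alone it was 0.33 (adjusted p = 0.941, limma). The pair of replicate 2 alone gives -0.40, the opposite sign.

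**Figure D1:**
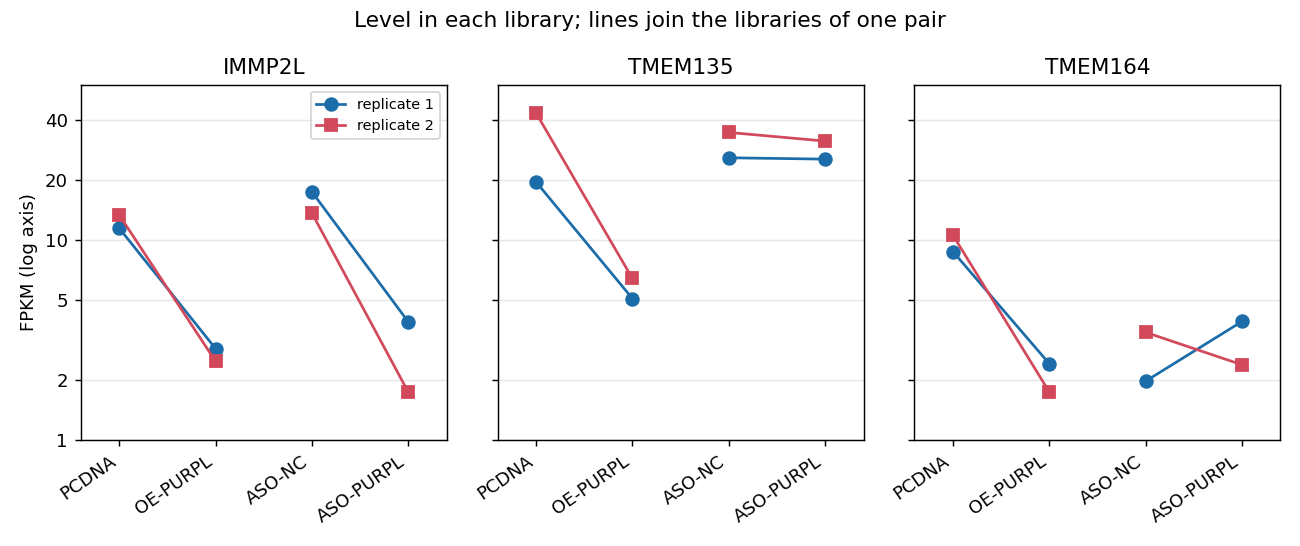
FPKM (log axis) of IMMP2L, TMEM135 and TMEM164 in each of the 8 libraries, by group on the x axis; circles are replicate 1, squares replicate 2, and lines join the treated and control library of a pair. IMMP2L lies between 1.74 and 3.91 FPKM in all 4 treated libraries, TMEM135 is low in the 2 OE-PURPL libraries, and TMEM164 is high in the 2 PCDNA libraries.

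Set beside each other, the members had like overexpression ratios, on which they were chosen, and unlike levels in the knockdown arm. Each had a lower overexpression ratio in the pair of replicate 2 than in that of replicate 1. Their levels in the PCDNA and ASO-NC controls differed as well. Inside the table of replicate 2, PCDNA was above ASO-NC 3.07-fold for TMEM164 and 1.25-fold for TMEM135, and IMMP2L was at 13.4 against 13.7 FPKM. Across the separate tables of replicate 1, PCDNA was above ASO-NC 4.45-fold for TMEM164, while ASO-NC was above PCDNA 1.53-fold for IMMP2L and 1.33-fold for TMEM135. The arm and its control cannot be told apart here, and no test was run between arms, since the PCDNA values served to choose the members.

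**Figure D2:**
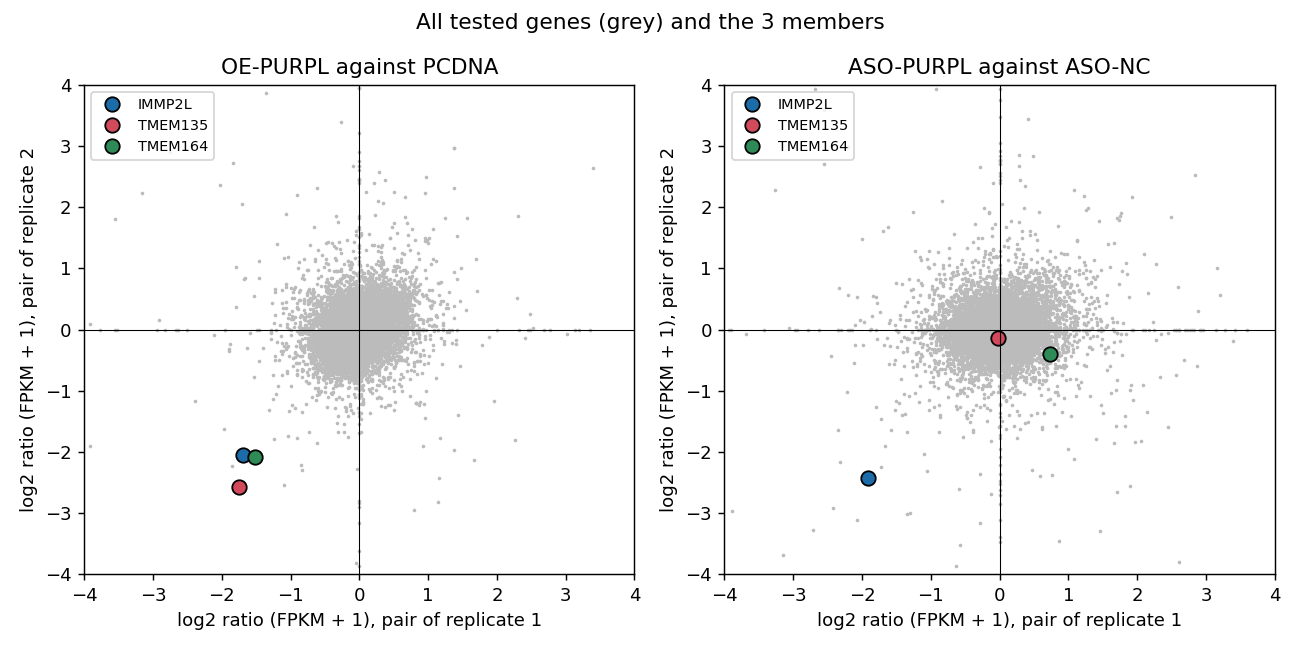
Log2 ratios of FPKM plus 1 in the pair of replicate 1 (x axis) and of replicate 2 (y axis), for overexpression on the left and knockdown on the right; each grey point is 1 of 14977 tested genes, 76 of which have a ratio beyond 4 in a pair and may lie outside the frame. After overexpression the 3 members lie together at the lower left, and after knockdown IMMP2L alone of the 3 does.

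The direction alone is common. After overexpression 31.1% of tested genes were lower in both pairs and 32.6% higher, and after knockdown 33.4% were lower and 19.3% higher. The median log2 change over all tested genes was 0 and -0.04. Of the 14 genes at a log2 ratio of -1 or less in both overexpression pairs, 4 are annotated as coding. These are the 3 members and POLR2J2, a near-copy of an RNA polymerase II subunit gene. Of the rest, 3 are pseudogenes and 7 names were not matched to the annotation. The members were chosen on these ratios, so nothing is read from their place among the 14.

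The nearest patterns over the 4 pair ratios were found by Euclidean distance among all tested genes. The distance uses the overexpression ratios on which the members were chosen, so a short distance between members follows in part from that choice and is a description. The pseudogene CKS1BP2 was closest to TMEM135 at a distance of 0.39 and to TMEM164 at 0.90, with 2.65 and 3.70 FPKM in PCDNA and at most 0.01 FPKM in the other 6 libraries, so that it passed the filter through PCDNA alone and its knockdown ratios of 0 are ratios of floor values. TMEM135 and TMEM164 were each other's second nearest gene, at 0.96. After them came POLR2J2 (1.40), RP11-611O2.3 (1.40) and the pseudogene BPTFP1 (1.46) for TMEM135, and BPTFP1 (1.05), ZNF516-AS1 (1.15) and RP11-298I3.5 (1.36) for TMEM164. IMMP2L had no close neighbour, the nearest 5 being AC079354.5 (2.09), AC007620.3 (2.10), RP11-81A1.12 (2.29), SUMO1P3 (2.31) and RP11-175B9.3 (2.46). Each of these 5 was at 0.01 FPKM or less in a treated library, so its distance rests in part on floor values. The same holds for RP11-298I3.5, at 0.01 and 1.02 FPKM in ASO-NC and at no more than 0.01 FPKM in ASO-PURPL. POLR2J2 had 6.71 and 6.11 FPKM in PCDNA, 2.11 and 1.87 in OE-PURPL, 3.09 and 3.00 in ASO-NC, and 2.08 and 2.94 in ASO-PURPL. Like TMEM164, POLR2J2 is lower in every library outside PCDNA than in PCDNA, and values of near-copies are uncertain.

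FPKM from Cufflinks adds up estimates for the annotated transcripts of a gene, and those of the members range widely in length. GENCODE 29, which may not be the annotation the authors used, lists 10 transcripts of 243 to 1522 bases for IMMP2L, 9 of 201 to 3938 bases for TMEM135, and 8 of 236 to 5567 bases for TMEM164. All 3 members have a transcript under 250 bases, a limit chosen after the values were seen, as do 781 of 12130 tested coding genes (6.44%). The share of coding genes whose replicates of a group differed by 1 or more on the log2 scale was, for genes with such a transcript against the rest and with no test, 2.05% against 0.352% in PCDNA, 1.54% against 0.282% in OE-PURPL, 7.81% against 4.50% in ASO-NC and 10.4% against 6.34% in ASO-PURPL. Those replicates stand in different tables. Whether the estimate for a short transcript carries the difference in any member was not tested, since the files hold 1 value per gene. The 2331 tested coding genes that span 100 kb or more, a limit also chosen after the values were seen, had median log2 ratios of -0.17 and -0.12 after overexpression, against -0.02 and 0.02 over all tested coding genes, and of -0.06 and 0.02 after knockdown, against -0.03 and -0.07.

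**Figure D3:**
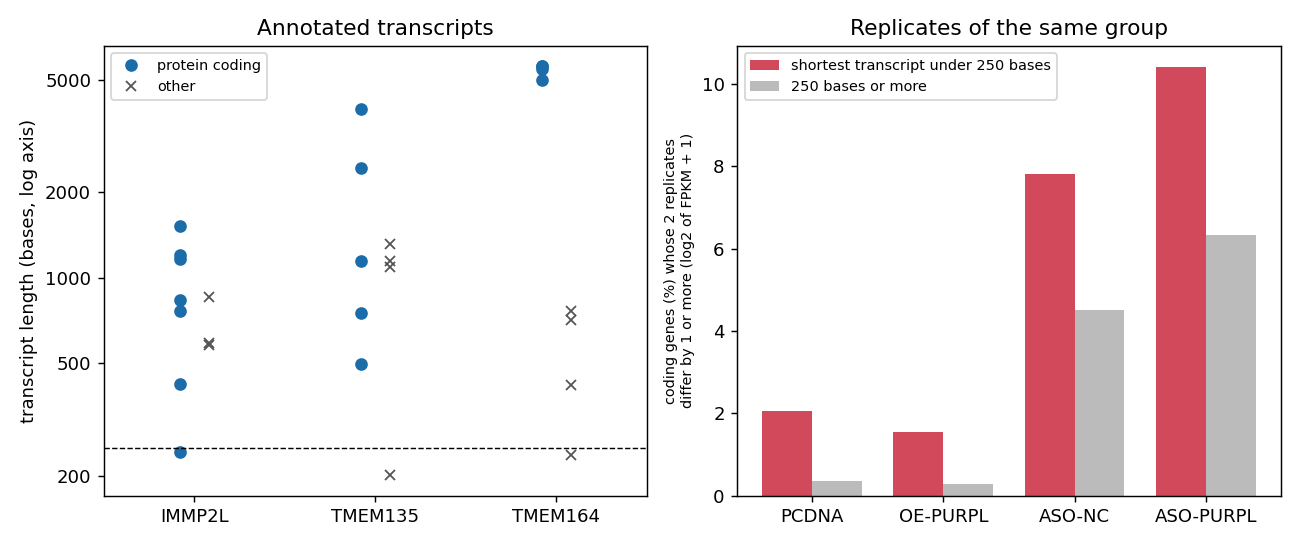
Left, length in bases (log axis) of each annotated transcript of the members, circles for protein-coding and crosses for other transcripts, the dashed line at 250 bases; right, percent of tested coding genes whose 2 replicates in a group differ by 1 or more in log2 of FPKM plus 1, for genes with a shortest transcript under 250 bases (red) or longer (grey). Each member has 1 transcript under the line, and the red bar exceeds the grey one in all 4 groups, from 2.05% against 0.352% in PCDNA to 10.4% against 6.34% in ASO-PURPL.

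IMMP1L, the partner of IMMP2L in the peptidase, did not share its pattern. It stood at 2.41 and 1.40 FPKM in PCDNA and at 2.76 and 6.09 FPKM in OE-PURPL, log2 ratios of 0.14 and 1.56. It stood at 9.08 and 8.11 FPKM in ASO-NC and at 10.8 and 9.41 FPKM in ASO-PURPL, ratios of 0.23 and 0.19. The levels of the partners are set side by side per length, with the limit that IMMP1L too has transcripts as short as 122 bases in GENCODE 29. IMMP2L was above IMMP1L 4.77-fold and 9.51-fold in PCDNA and 1.93-fold and 1.68-fold in ASO-NC. In OE-PURPL it was at 1.04 and 0.407 times the level of IMMP1L, and in ASO-PURPL at 0.362 and 0.185 times. The knockdown change of IMMP1L was 0.21 (SE 0.33, adjusted p = 0.887, limma).

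**Figure D4:**
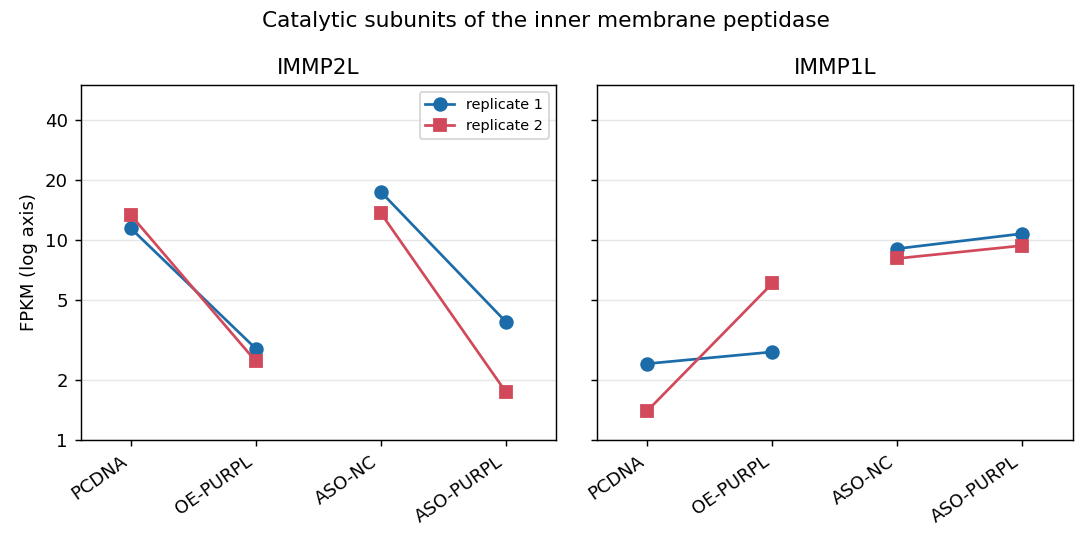
FPKM (log axis) of IMMP2L and IMMP1L in the 8 libraries, by group, with symbols as in the plot of the members' levels. IMMP2L is below 4 FPKM in the 4 treated libraries, while IMMP1L is at 1.40 to 6.09 FPKM in the overexpression arm and at 8.11 to 10.8 FPKM in the knockdown arm.

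Genes that work with the members were looked at in 8 lists, and none of their 123 tested genes was called by limma in either comparison, where over all genes 4 were called higher after overexpression (0.0267%) and none lower (0.0%), the 4 becoming 0 or 1 when any 1 pair was left out. The lowest adjusted p among them was 0.324 after overexpression and 0.582 after knockdown, and 18 and 11 had an unadjusted p under 0.05 (14.6% and 8.94%), beside 2061 and 1225 of all genes tested (13.8% and 8.18%). Proteins that the inner membrane peptidase is reported to cut, in yeast or in mammals, are GPD2, CYC1, DIABLO, AIFM1 and CYB5R3. GPD2, the mitochondrial glycerol-phosphate dehydrogenase, was lower in all 4 pairs, and the share of all tested genes that were so was not counted. Its log2 ratios were -0.39 and -0.29 after overexpression and -1.41 and -0.37 after knockdown. The other 4 were higher in both overexpression pairs, CYC1, a subunit of a respiratory complex, at 0.17 and 0.39, CYB5R3, a cytochrome b5 reductase, at 0.21 and 0.38, DIABLO, which promotes apoptosis, at 0.01 and 0.14, and AIFM1, an oxidoreductase of the intermembrane space, at 0.01 and 0.11. After knockdown CYC1 had -0.07 and -0.27 and DIABLO -0.08 and -0.13, while the pairs differed in sign for AIFM1 (0.29 and -0.24) and CYB5R3 (0.07 and -0.25). The GPD2 level was 7.10 and 6.79 FPKM in ASO-NC and 2.05 and 5.02 in ASO-PURPL. Mitochondrial peptidases, a list that holds IMMP1L but not IMMP2L, had medians of -0.01 and -0.08 over 16 tested genes. In both overexpression pairs 6 were lower and 5 higher (37.5% and 31.2%, against 31.1% and 32.6% of all genes). In both knockdown pairs 6 were lower and 6 higher (37.5% each, against 33.4% and 19.3%). Among them LONP1, a protease of the matrix, had knockdown ratios of -0.65 and -0.25, and HTRA2, a protease of the intermembrane space, overexpression ratios of 0.32 and 0.27.

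For processes tied to TMEM135, genes of mitochondrial fission and fusion had a median of -0.08 in each comparison (15 tested). Of them 8 were lower and 2 higher in both overexpression pairs (53.3% and 13.3%, against 31.1% and 32.6% of all genes), and 6 were lower and 1 higher in both knockdown pairs, where the shares of all genes were 33.4% and 19.3%. OPA1, which fuses inner membranes, had overexpression ratios of -0.37 and -0.43 and the fission factor FIS1 of 0.39 and 0.35. Both were named for the size of their ratios, and no shift between fission and fusion is read from them. Mean overexpression ratios of others on the list were -0.17 for DNM1L, -0.08 for MFF, 0.41 for MIEF2, -0.09 for MFN1 and 0.05 for MFN2. Peroxisome biogenesis genes had medians of 0.03 and -0.02 (20 tested, 3 lower and 6 higher in both overexpression pairs, 6 lower and 3 higher in both knockdown pairs), that is 15.0% lower and 30.0% higher and then 30.0% lower and 15.0% higher, beside the same shares of all genes. Among them PEX11G, of a family that divides peroxisomes, was at 0.55 and 0.75 after overexpression. Peroxisomal enzymes and transporters had medians of 0 and -0.13 (20 tested). Of these 20, 5 were lower and 7 higher in both overexpression pairs, against 31.1% and 32.6% of all genes. In both knockdown pairs 10 of the 20 were lower and 2 higher. All genes tilted the same way there, 33.4% lower and 19.3% higher. HSD17B4, of peroxisomal beta-oxidation, had -0.59 and -0.23 after knockdown. Targets of LXR, the sterol-sensing receptor, had medians of 0.04 and -0.04 (10 tested). Of these 10, 3 were lower and 4 higher in both overexpression pairs, against 31.1% and 32.6% of all genes. In both knockdown pairs 4 of the 10 were lower and 0 higher, against 33.4% and 19.3% of all genes. Among the LXR targets the cholesterol exporter ABCA1 had overexpression ratios of -0.33 and -0.48 and APOE of 0.47 and 0.69.

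Around TMEM164, ether lipid and acyl remodelling genes had medians of -0.06 and -0.09 (22 tested). Of them 8 were lower and 4 higher in both overexpression pairs (36.4% and 18.2%, against 31.1% and 32.6% of all genes), and 9 were lower and 3 higher in both knockdown pairs (40.9% and 13.6%, against 33.4% and 19.3%). Of the enzymes that make the fatty alcohols of ether lipids, FAR1 was at -0.63 and -0.28 and FAR2 at 0.18 and 0.57 after overexpression. TMEM86B, a lysoplasmalogenase, had knockdown ratios of 0.36 and 0.75 and the acyltransferase LPGAT1 of -0.83 and -0.14. ACSL4, which activates arachidonic acid and is a gene of the ferroptosis pathway, had overexpression ratios of -0.50 and -0.24. Ferroptosis regulators had medians of 0.06 and -0.06 (16 tested). Of these 16, 5 were lower and 7 higher in both overexpression pairs, against 31.1% and 32.6% of all genes. In both knockdown pairs 8 of the 16 were lower and 1 higher, against 33.4% and 19.3% of all genes. GPX4, the enzyme that reduces lipid peroxides, had overexpression ratios of 0.22 and 0.33, and SLC7A11, the cystine importer, knockdown ratios of -0.33 and -0.07.

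**Figure D5:**
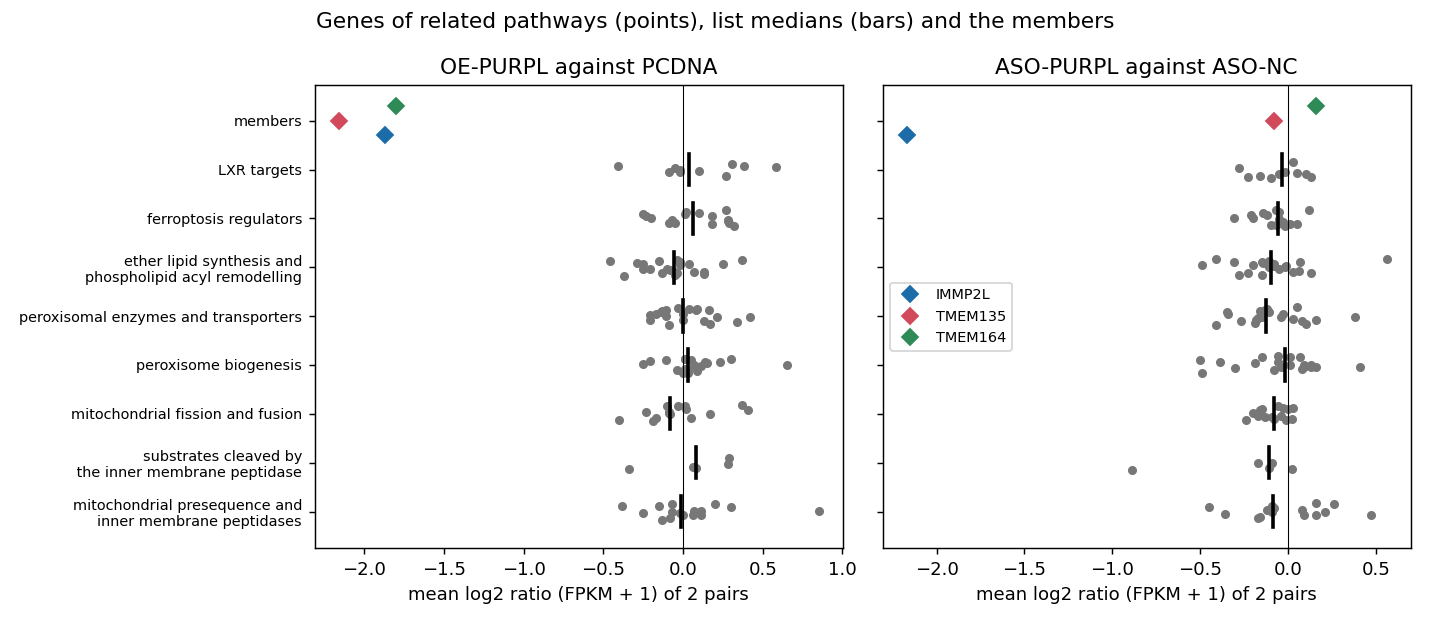
Mean log2 ratio (FPKM plus 1) of the 2 pairs (x axis) for the tested genes of 8 related lists (grey points, 1 row per list, black bar at the median) and for the members (coloured diamonds, top row), overexpression on the left and knockdown on the right. List medians lie between -0.13 and 0.08, while the members lie between -2.16 and -1.80 after overexpression and IMMP2L lies at -2.17 after knockdown.

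Genes beside or inside the members were looked at next, and none of the 7 that were tested passed. Over all 14977 genes, 4 passed higher after overexpression (0.0267%), 0 passed lower, and 0 passed after knockdown. That none of the 7 passed therefore does not show that they were unchanged. LRRN3, a gene for a leucine-rich repeat protein of neurons, lies inside IMMP2L on the opposite strand (chromosome 7, 111091006 to 111125454). Its level was 6.16 and 6.23 FPKM in PCDNA, 5.76 and 7.43 in OE-PURPL, 2.05 and 1.78 in ASO-NC, and 3.35 and 1.57 in ASO-PURPL. Beyond IMMP2L, DOCK4, a guanine nucleotide exchange factor, had overexpression ratios of 0.19 and -0.38 at 164 kb, and DNAJB9, a chaperone of the endoplasmic reticulum, 0.22 and 0.14 at 2090 kb. Beside TMEM135, FZD4, a Wnt receptor, had ratios of -0.16 and -0.08 and the small GTPase RAB38 of 0.04 and 0.12. Beside TMEM164, AMMECR1 (chromosome X, 110194186 to 110440233), 11.5 kb away, had ratios of -0.92 and -0.27. Its level was 7.06 and 4.17 FPKM in PCDNA and 3.26 and 3.29 in OE-PURPL, and neither it (adjusted p = 0.334, limma) nor ACSL4, the expressed neighbour on the other side at 269 kb (adjusted p = 0.324, limma), passed. MIR652 and MIR3978, microRNA genes inside TMEM164, are listed at no more than 0.01 FPKM in all 8 libraries, and the pseudogene XIAPP2 inside TMEM135 at no more than 0.122 FPKM.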

How the data were processed

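Reads were aligned with STAR and quantified with Cufflinks on hg38, per the submitters' processing notes, which give no versions; the annotation used, and any use of strand, are not given in the sources used here. As deposited by the authors, the data are 3 tables of 60635 rows. Their FPKM values were identified from the tool named and from sums that are neither TPM nor CPM, and the tables of replicate 1 list no value under 0.01 and also hold the authors' log2 fold changes. The design text of the series names other cells and was not used.

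Of 1264 rows with a repeated name the row of highest mean was kept in each table, and each member has 1 row in every table. 1 gene with a cell that is not a number was left out, so 59370 names remained, of which 37747 were matched to GENCODE 29. Log2 ratios with a pseudocount of 1, which understate changes of low genes, were taken in the 4 within-table pairs for the 14977 genes whose average in one arm or the other reached 1 FPKM. Overexpression and knockdown coefficients were fitted together with limma 3.58.1 in R 4.3.3 (trend on mean level, 2 residual degrees of freedom, Benjamini-Hochberg adjustment over all genes tested), and the code was tested on simulated data. Since replicates are not stated to be separate cultures, p-values reflect only how these libraries vary, possibly for technical reasons. The members, and the lists, were chosen with earlier results of these data known. Genes named are the members, PURPL, the partner IMMP1L, the substrates, up to 3 genes per list and comparison with the largest ratios of 1 sign in both pairs, the 5 nearest in pattern, and overlapping or neighbouring genes. Likeness across genes and length classes are descriptions. Alternatives changed the pseudocount, the filter, the scaling, the fit, the pairing and the pairs included. Promoter windows come from RefSeq on GRCh38.p14 and positions from GENCODE 29.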

Additional observations from a re-analysis of the deposited data

How the results depend on the processing

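Read depth is unknown, so no counting error can be given, and 2 pairs per comparison limit the precision. The knockdown changes of TMEM135 and TMEM164 did not pass in any of the 14 alternatives run for each, with adjusted p-values of 0.906 to 1 and of 0.498 to 1 (limma). The 14 are not separate checks. For these knockdown changes, leaving out an overexpression pair gave the same values as the fit of the comparison alone. Summing repeated names changed nothing, since each member has 1 row. With a pair left out, TMEM135 ranged from -0.14 to -0.02 and TMEM164 from -0.40, without ASO-PURPL and ASO-NC replicate 1, to 0.73. With no replicate block and quantile normalization, that is not paired, they were -0.03 and 0.19; deviations of libraries with the same number correlated across genes with r = 0.143 in the overexpression groups and 0.491 in the knockdown groups. A pseudocount of 5 gave overexpression changes of -1.18 for IMMP2L, -1.68 for TMEM135 and -1.05 for TMEM164 and a knockdown change of -1.40 for IMMP2L. A pseudocount of 0.1 gave overexpression changes of -2.18 for IMMP2L, -2.32 for TMEM135 and -2.18 for TMEM164 and a knockdown change of -2.52 for IMMP2L. The members' changes kept their sign in all other alternatives. Genes past the test after knockdown numbered 1 with a pseudocount of 0.1 and 9 with no filter, against 0. After overexpression they numbered 2 with a pseudocount of 5, 1 with the trend of transcript length and GC content removed, 0 in the fit of the comparison alone and 0 to 1 with a pair left out, against 4. The cause was not tested.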
